A study of Homo sapiens with 2 samples.

Results

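Genes that build and load the MHC class I molecule were followed in Tu212 cells, a line labelled epithelial-derived that serves as a head and neck squamous cell carcinoma model. The 9 genes are HLA-B, HLA-C, HLA-E, B2M, TAP1, TAP2, TAPBP, NLRC5 and ERAP1, chosen by name for their place in the pathway, and each stands on 1 row of a table of 56690 gene symbols. All 9 had 10 or more reads in at least 1 library, as did 17777 genes in all. Both groups are the same line 48 h after treatment with a pEZ plasmid: the vector alone in the group labelled control, and pEZ-PRMT5 in the group labelled PRMT5 overexpression. Polyadenylated RNA was sequenced from 1 library per group. The labels do not say whether cells were pooled or what share of them took up the plasmid.

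Class I molecules carry short peptides from the cell's own proteins to its surface, where CD8 T cells read them. A heavy chain (HLA-B, HLA-C or HLA-E here) pairs with beta-2-microglobulin (B2M). Peptides cut by the proteasome are pumped into the endoplasmic reticulum by the TAP1 and TAP2 transporter, trimmed by ERAP1 and offered to the heavy chain by tapasin (TAPBP). NLRC5 is the transactivator that binds class I promoters through a partner complex on their X and Y boxes. Many carcinomas are known to lower this pathway, and interferon is known to raise it.

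The sequences that bear on how these genes are told apart are shown first. HLA-B and HLA-C are close relatives, and their coding sequences (1089 and 1101 bases in GENCODE release 29) were 92.6% identical over aligned bases, against 86.9% for HLA-B with HLA-E. Their first 60 coding bases encode the start of the signal peptide, and the capitals mark bases 7 to 33, counted from the A of the start codon. In HLA-B and HLA-C these are codons 3 to 11, whose peptide is known to be presented by HLA-E itself. The same codons are in capitals for HLA-E.
HLA-B: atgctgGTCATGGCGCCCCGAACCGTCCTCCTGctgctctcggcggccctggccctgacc
HLA-C: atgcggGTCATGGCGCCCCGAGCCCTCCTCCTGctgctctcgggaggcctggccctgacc
HLA-E: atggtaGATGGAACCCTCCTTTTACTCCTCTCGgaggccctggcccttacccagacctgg
Of the 27 bases in capitals, 2 differed between HLA-B and HLA-C and 16 between HLA-B and HLA-E. These are reference sequences, and the alleles of Tu212 were not analysed here.

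The promoters of HLA-B, HLA-C and B2M are shown because the heavy chains HLA-B and HLA-C each pair with B2M. HLA-B and HLA-C were lower in the PRMT5 overexpression library, while B2M was near its vector control level. RefSeq windows in GRCh38.p14 were found for 7 of the 9 genes, without HLA-E and NLRC5. The bases from 250 to 41 before the annotated start are printed 5′ to 3′ on the gene's strand. HLA-B is chr6:31357220-31357429 (minus), HLA-C is chr6:31272133-31272342 (minus) and B2M is chr15:44711267-44711476 (plus). Capitals mark matches, on either strand, to the core of the interferon-stimulated response element (ISRE: GAAA, any 2 bases and GAAA again) and its shorter form GAANNGAAA, to the kB site (GGG, any 2 bases, then TTTCC) and the form GGGGATTC, TGACG (part of the X2 box) and CCAAT (the Y box).
HLA-B: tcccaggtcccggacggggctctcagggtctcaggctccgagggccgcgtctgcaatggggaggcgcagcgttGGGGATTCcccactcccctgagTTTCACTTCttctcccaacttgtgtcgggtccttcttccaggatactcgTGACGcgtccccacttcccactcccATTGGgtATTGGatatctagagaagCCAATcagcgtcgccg
HLA-C: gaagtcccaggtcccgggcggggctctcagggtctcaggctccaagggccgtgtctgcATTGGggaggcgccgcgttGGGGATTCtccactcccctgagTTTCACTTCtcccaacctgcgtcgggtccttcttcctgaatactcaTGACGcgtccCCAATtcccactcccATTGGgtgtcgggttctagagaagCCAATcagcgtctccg
B2M: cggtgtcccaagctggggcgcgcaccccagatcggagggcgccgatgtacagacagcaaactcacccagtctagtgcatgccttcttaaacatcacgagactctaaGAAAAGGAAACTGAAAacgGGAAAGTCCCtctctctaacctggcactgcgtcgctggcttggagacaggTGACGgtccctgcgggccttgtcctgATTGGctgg
The printed stretches of HLA-B and HLA-C were 92.2% identical over aligned bases. All 3 promoters held TGACG upstream of CCAAT or its reverse complement. Within 250 bases before the start, TGACG was found for 4 of the 7 genes (HLA-B, HLA-C, B2M and TAP2) and in 21.2% of 35116 windows of all genes. CCAAT was found for 5 of the 7 and in 32% of all windows. The ISRE core was found for TAP1, TAP2, TAPBP and B2M and in 3.02% of all windows, and the kB site for TAP1, TAPBP and B2M and in 1.73%. GGGGATTC and GAANNGAAA, which were read off the class I promoters after the first motifs had been searched, were found in 0.772% and 6.56% of all windows. CACGTG, the E-box, was found for 0 of the 7 genes and in 6.34% of all windows. A gene was counted if any of its windows matched, and ERAP1 had more than 1 window, while the shares are per window. The gene counts and the shares are therefore unlike measures. A match is a description of letters and not a measured binding site.

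Levels are given in CPM, the read count of a gene scaled for library size by the TMM method, and a difference is the log2 ratio of PRMT5 overexpression minus vector control. The vector control library held 14119997 reads on genes and the PRMT5 overexpression library 19908258, so that 1 read was 0.0701 CPM and 0.0507 CPM. Intervals are exact (Clopper-Pearson) at 95% and cover counting error only, and since each group has 1 library, no difference has a replicate check, a test or a p-value. PRMT5, the arginine methyltransferase encoded by the plasmid, went from 145 CPM under the vector alone to 293 CPM, a difference of 1.01 on the log2 scale (counting interval 0.94 to 1.09). The epithelial markers KRT5 and KRT14 were at 4575 and 1262 CPM under the vector alone and at 5077 and 1413 CPM with PRMT5 overexpression, and all 7 epithelial markers had 10 or more reads. Of 13 class II genes, which mark professional antigen-presenting cells, 3 reached 10 reads in a library and HLA-DRA had 0 reads in both.

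Transcripts of the classical heavy chains HLA-B and HLA-C were at a lower level in the PRMT5 overexpression library, while the light chain and the peptide transporter were near their vector control level. HLA-C was 1.45-fold lower, HLA-B 1.32-fold lower and the loading chaperone TAPBP 1.27-fold lower. No member differed by 1.5-fold, the size used to call a gene higher or lower, or 0.58 on the log2 scale. On each side 0 of 9 reached it, where 7.06% of all 17777 genes did upward and 5.33% downward, and 1.84% and 1.79% of the 10281 genes averaging at least 200 reads over both libraries, as every member did. At 1.2-fold, 3 of 9 members were lower (HLA-B, HLA-C and TAPBP), against 15.4% of all genes and 7.87% of the 10281. At the same size 0 of 9 were higher, against 17.2% and 7.92%. Of the 9, 6 were below 0 and 3 above, where 49.6% and 50.4% of all genes were. The median of the 9 log2 ratios was -0.06, beside 0.00 over all 17777 genes.

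**Figure D1:**
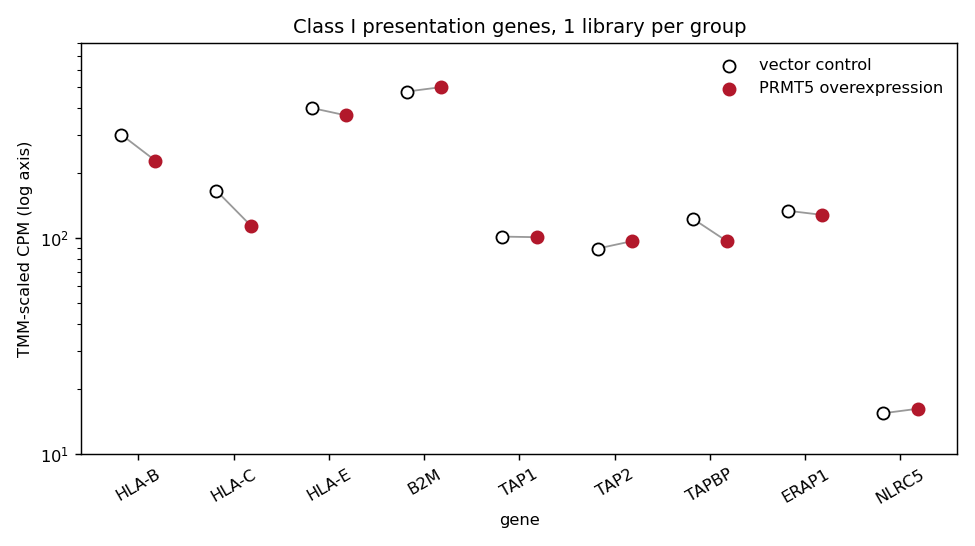
Level of each class I presentation gene in TMM-scaled CPM on a log axis; open circles are the vector control library, filled circles the PRMT5 overexpression library, and a line joins the pair. HLA-B, HLA-C and TAPBP show the steepest downward lines, while B2M moves from 478 to 502 CPM.

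HLA-B (ENSG00000234745), a classical heavy chain that presents peptides to CD8 T cells, had 4310 reads in the vector control and 4505 in the PRMT5 overexpression library. This was 302 CPM against 229 CPM, since the second library was 1.41 times as deep. On the log2 scale the difference was -0.40 (counting interval -0.46 to -0.34). HLA-C (ENSG00000204525), the classical heavy chain that is also a main ligand of the killer-cell receptors on NK cells, had 2365 and 2255 reads, or 166 CPM against 114 CPM. Its log2 ratio, -0.54 (counting interval -0.62 to -0.45), was the lowest of the 9 genes, and its interval alone reached past 1.5-fold. Of the 4118 best-read genes, those averaging at least 1000 reads over both libraries, 59 stood as low as HLA-C or lower and 93 as low as HLA-B or lower.

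HLA-E (ENSG00000204592), the non-classical chain that shows signal peptides of other class I chains to NK cell receptors, was nearer to 0. It had 5726 and 7311 reads, which is 402 CPM under the vector alone and 371 CPM with PRMT5 overexpression. Its log2 ratio of -0.11 had an interval of -0.16 to -0.06, which did not overlap those of HLA-B and HLA-C. Of the same 4118 genes, 727 stood as low or lower. Together the 3 heavy chain genes made up 870 CPM under the vector alone and 714 CPM with PRMT5 overexpression.

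B2M (ENSG00000166710), the light chain that every class I heavy chain needs to fold and leave the endoplasmic reticulum, had 6822 reads in the vector control and 9887 in the PRMT5 overexpression library, which is 478 and 502 CPM. The log2 ratio of B2M was 0.07 (counting interval 0.02 to 0.11). The library with the lower heavy chain CPM thus did not have less B2M. The size of the B2M difference was below the median size of 0.09 over the 4118 genes averaging at least 1000 reads.

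Read ratios within a library do not depend on how the libraries are scaled. There were 0.632 HLA-B reads per B2M read in the vector control and 0.456 in the PRMT5 overexpression library. For HLA-C the ratio was 0.347 and 0.228, and for HLA-E 0.839 and 0.739. The 3 heavy chains together had 1.82 and 1.42 reads per B2M read, a log2 difference of -0.35 with an interval of -0.41 to -0.30. Thus all 3 heavy chain genes had fewer reads relative to B2M in the PRMT5 overexpression library, HLA-C by the most, at a log2 difference of -0.60. HLA-B reads per HLA-C read were 1.82 and 2.00, a log2 difference of 0.13 with an interval of 0.03 to 0.24. HLA-B per HLA-E went from 0.753 to 0.616.

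**Figure D2:**
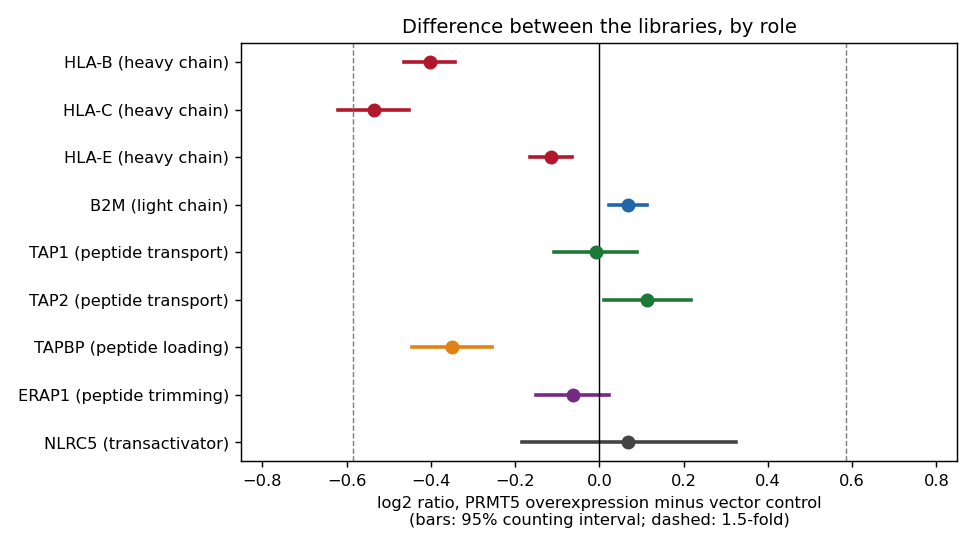
Log2 ratio of each gene, PRMT5 overexpression minus vector control, coloured by role, with 95% counting intervals as bars and 1.5-fold as dashed lines. The points of HLA-B, HLA-C and TAPBP lie between -0.54 and -0.35, and those of the other 6 genes between -0.11 and 0.11.

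TAP1 (ENSG00000168394) and TAP2 (ENSG00000204267) encode the paired subunits of the transporter that moves peptides into the endoplasmic reticulum. TAP1 had 1450 reads in the vector control and 1992 in the PRMT5 overexpression library, which is 102 and 101 CPM. Its difference was -0.01 on the log2 scale (counting interval -0.11 to 0.09). TAP2 had 1276 and 1908 reads, which is 89.5 and 96.8 CPM, and a difference of 0.11 (counting interval 0.01 to 0.22). TAP1 reads per TAP2 read were 1.14 and 1.04, and the interval of this log2 difference, -0.27 to 0.02, held 0. The level of each transporter gene was thus close between the libraries.

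TAPBP (ENSG00000231925), or tapasin, bridges the transporter and the empty heavy chain. It had 1756 reads in the vector control and 1905 in the PRMT5 overexpression library, which is 123 and 96.6 CPM. The difference was -0.35 on the log2 scale (counting interval -0.44 to -0.26). TAPBP reads per TAP1 read were 1.21 and 0.956, a log2 difference of -0.34 with an interval of -0.48 to -0.20. TAPBP was therefore lower where the transporter it binds was not, and its value lay beside those of HLA-B and HLA-C. TAPBPL, a related peptide editor that works outside the transporter complex, had 21.0 and 23.3 CPM and a log2 ratio of 0.15.

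ERAP1 (ENSG00000164307), the aminopeptidase that trims peptides to the length class I binds, had 1910 reads in the vector control and 2527 in the other library, which is 134 and 128 CPM. The difference of -0.06 on the log2 scale had a counting interval, -0.15 to 0.02, that held 0. NLRC5 (ENSG00000140853), the transactivator of class I genes, was the least-read member, with 220 and 319 reads, or 15.4 and 16.2 CPM. Its log2 ratio was 0.07 and its interval, -0.18 to 0.32, was the widest of the 9. A difference of the size seen for HLA-B lay outside this interval on the lower side, while one of about 1.2-fold in the other direction lay within it. The intervals of HLA-B, HLA-C, HLA-E and TAPBP lay wholly below 0, 4 of 9, where 14.3% of all genes and 19.1% of the 10281 did. Those of B2M and TAP2 lay wholly above 0, 2 of 9, where 14.3% and 19.2% did.

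**Figure D3:**
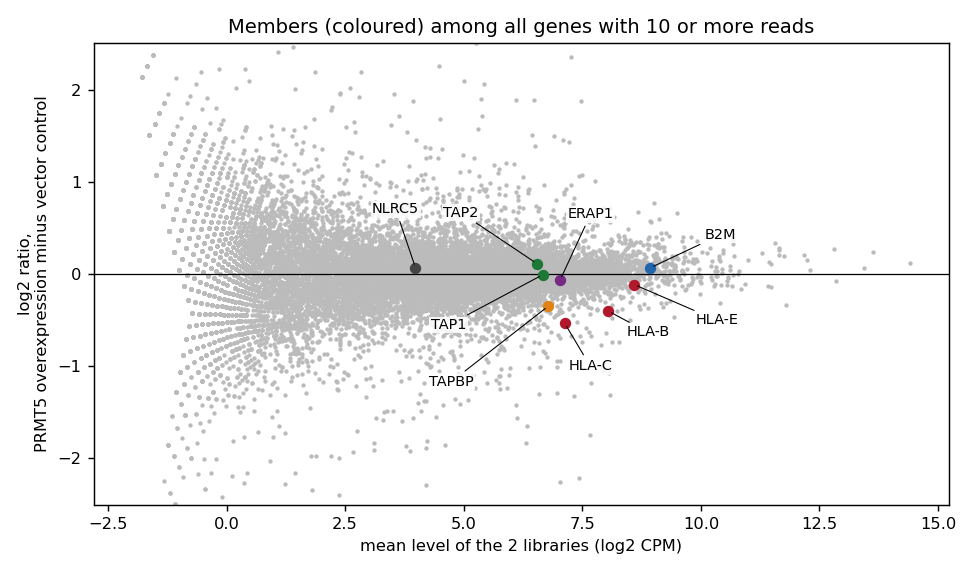
Log2 ratio against mean level in log2 CPM for genes with 10 or more reads (grey) and the 9 class I presentation genes (coloured by role); 99 genes lie outside the vertical range. HLA-C, HLA-B and TAPBP sit at the lower edge of the cloud of genes with like levels, and the other 6 sit inside it.

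Levels of different genes were compared only per length, as CPM per kilobase of merged exons in GENCODE release 29. In the vector control the order was HLA-E at 135, HLA-B at 99.1, B2M at 78.7 and HLA-C at 66.2, followed by TAPBP at 24.4, TAP1 at 21.2, ERAP1 at 16.9, TAP2 at 14 and NLRC5 at 1.25. In the PRMT5 overexpression library B2M, at 82.5, stood above HLA-B, at 74.9, and TAP1, at 21.0, above TAPBP, at 19.1. Both libraries thus had the chains of the molecule itself at the top, the loading machinery below them and the transactivator last. Per kilobase of the principal transcript, a length chosen after the data were seen, B2M came first in both libraries, at 281 and 294. HLA-B and HLA-E then stood at 195 and 154 in the vector control and at 148 and 143 in the other library. The deposited FPKM rests on other lengths: for B2M it implies 12755 bases, longer than the 7391 bases that the gene spans in GENCODE, so FPKM was not used to rank genes.

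Most of these genes lie close together. In GRCh38, HLA-E is on the plus strand of chromosome 6 from 30489467 to 30494205, HLA-C on the minus strand from 31268749 to 31272130 and HLA-B on the minus strand from 31269491 to 31357188. TAP2 (32821833 to 32838780), TAP1 (32845209 to 32853978) and TAPBP (33299694 to 33314387) follow on the same chromosome, all on the minus strand. B2M is on chromosome 15 (44711477 to 44718877, plus), NLRC5 on chromosome 16 (56989485 to 57083531, plus) and ERAP1 on chromosome 5 (96760810 to 96808100, minus).

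Some reads of these genes cannot be assigned with certainty. The annotated span of HLA-B reaches into HLA-C because of 1 transcript, and 35 exon bases belong to both genes on the same strand. Summed, HLA-B and HLA-C were at -0.45 (counting interval -0.50 to -0.40), so their shared lower level does not rest on how reads were divided between them. Of 50-base stretches taken every 10 bases along the principal transcript, 2.67% for HLA-B, 8.05% for HLA-C and 5.47% for HLA-E also occur in another gene. TAP2 shares 80.4% of its stretches with AL669918.1, a gene that overlaps it on the same strand, but this gene had only 4 and 30 reads, and the sum was at 0.13. HLA-B, TAP1 and ERAP1 share exon bases with AL671883.2, PSMB8-AS1 and CAST on the other strand, and the sources used here do not say whether counting used strand. CAST, the calpain inhibitor gene, had 2965 and 3977 reads, a difference of -0.04, and ERAP1 in the sum was at -0.05. TAP1 summed with PSMB8-AS1 was at -0.02.

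The neighbourhood of the members was described by the genes between HLA-F and DAXX (chromosome 6, 29722775 to 33329286). Of 133 genes there that are not members and had 10 or more reads, 70 had a log2 ratio above 0 and 63 below, 11 were past 1.5-fold upward and 8 downward, and the median was 0.02. These shares are near the 7.06% and 5.33% of all genes. Among the 73 averaging at least 200 reads, 5 were lower by 1.2-fold or more and 7 higher, near the 7.87% and 7.92% of all genes so read, with a median of 0.03. The 6 members in this stretch had 1 log2 ratio above 0 and 5 below, with a median of -0.23. Next to TAPBP, RGL2 and ZBTB22 had log2 ratios of -0.10 and 0.06, both nearer to 0 than TAPBP itself. PSMB8, which lies between TAP2 and TAP1, was at 0.13. Of these 73 genes, 3 were past 1.5-fold upward, NRM at 0.91, DDAH2 at 0.83 and TRIM39 at 0.61, and 2 downward, the non-coding RNA HCP5 at -0.93 and PPP1R18 at -0.65. Of all genes averaging at least 200 reads, 1.84% were past 1.5-fold upward and 1.79% downward. Summed with genes that share their exon bases, HCP5 (with MICA) was at -0.45, DDAH2 (with CLIC1) at 0.24 and TRIM39 at 0.10, all within 1.5-fold. HLA-F, a non-classical heavy chain, was at -0.51 from 316 and 307 reads, and at -0.39 when so summed. Except for TRIM39, these genes were named after their values were seen.

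**Figure D4:**
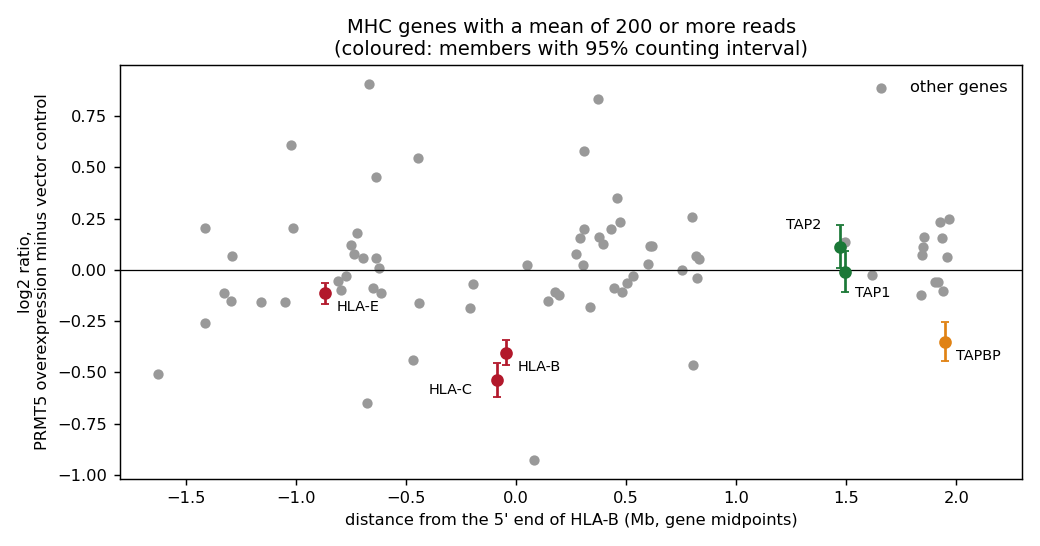
Log2 ratio of 79 MHC genes averaging at least 200 reads against distance in Mb from the 5′ end of HLA-B, with the 6 member genes coloured and their 95% counting intervals as bars. HLA-B and HLA-C at -0.40 and -0.54 lie below most of the grey genes around them, while TAP1 and TAP2 lie near 0.

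Related genes were taken from 11 lists. Of their 113 genes with 10 or more reads, 4 were past 1.5-fold upward and 2 downward, or 3.54% and 1.77%. Among all genes 7.06% and 5.33% were, and among the 10281 averaging at least 200 reads 1.84% and 1.79%. A count of 0 past 1.5-fold in a single short list therefore says little. In the list of other class I and class I-like genes, 12 entries held 8 with 10 or more reads, of which 3 were above 0 and 5 below, with a median of -0.07. HLA-H, a pseudogene whose sequence is close to the classical heavy chains, was 1.55-fold lower, with 150 and 133 reads and a log2 ratio of -0.64. Summed with a gene that shares its exon bases it was at -0.50. HFE, the class I-like chain of iron sensing that also pairs with B2M, had 84 reads and 274 reads, 5.89 and 13.9 CPM, and was 2.35-fold higher, or 1.23 on the log2 scale (counting interval 0.88 to 1.61). FCGRT, the B2M-paired Fc receptor that recycles IgG and albumin, was at 0.30. The B2M-binding chains named here thus differed in both directions.

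Genes of peptide supply lay on both sides of 0, and 50.4% of all genes were above it. Above 0 were 5 of 8 immunoproteasome and activator genes, 2 of 3 standard catalytic subunits and 6 of 8 peptide-trimming genes. In lists this short such counts say little, and the differences were small for most of these genes. The 3 immunoproteasome subunits PSMB8, PSMB9 and PSMB10, which replace standard catalytic subunits under interferon, had log2 ratios of 0.13, 0.13 and -0.03. TAP1 and PSMB9 are known to share a promoter region, and TAP1 reads per PSMB9 read were 2.08 and 1.88, with an interval of the log2 difference of -0.31 to 0.03. In the list of 8 immunoproteasome and activator genes, 1 was past 1.5-fold upward and 0 downward. That gene was PSME3, which encodes the nuclear activator PA28 gamma, with 40.3 and 92.5 CPM, a difference of 1.2 on the log2 scale. Summed with BECN1, which shares exon bases with it, it was at 0.67. The interferon-induced activator subunits PSME1 and PSME2 were at 0.32 and -0.04. The lowest gene of the same list was POMP, at -0.36 (counting interval -0.48 to -0.23). Standard catalytic subunits PSMB5, PSMB6 and PSMB7 were at -0.35, 0.34 and 0.26. Of 8 peptide-trimming genes 0 were past 1.5-fold, with a median of 0.07. ERAP2, the partner of ERAP1, was at 0.06 and the cytosolic peptidase NRDC at 0.05. The highest were the aminopeptidases NPEPPS at 0.31 and LAP3 at 0.26 and the oligopeptidase THOP1 at 0.24, and the lowest was TPP2 at -0.13. Among 9 assembly chaperones 0 were past 1.5-fold and 7 were above 0, with a median of 0.02, CALR at 0.00 and HSPA5 at -0.11.

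The measured regulators of class I transcription were all within 1.5-fold of their vector control level, though some lay as far from 0 as HLA-B or TAPBP. Of 17 genes of the interferon pathway 0 were past 1.5-fold, 9 were above 0 and 8 below, and the median was 0.00. Intervals lay wholly above 0 for 4 of the 17 and wholly below for 3, where 14.3% of all genes did on each side. Among the 10281 genes averaging at least 200 reads, 19.2% lay above and 19.1% below. IFNGR1 was at -0.36 and IRF2 at 0.35. STAT3, a transcription factor of cytokine signalling, was at -0.02. Of 12 factors known at class I promoters 0 were past 1.5-fold, with a median of -0.03. Intervals lay wholly above 0 for 1 of the 12 and wholly below for 3. The lowest of the 12 was NFYC at -0.41 (counting interval -0.61 to -0.22). RFX5, the DNA-binding subunit of the X box complex, was at -0.07 and the coactivator EP300 at 0.14. Of 13 measured genes of class I silencing and turnover 0 were past 1.5-fold, with a median of -0.03. IRF2BP2, a corepressor, was at 0.00 and NBR1, an autophagy receptor, at -0.13.

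Surface ligands of T and NK cells other than class I had a median of -0.02 over 14 measured genes. PVR, a ligand of the receptors CD226 and TIGIT, had 256 and 190 reads, 18 and 9.64 CPM, and was 1.86-fold lower, or -0.89 on the log2 scale (counting interval -1.18 to -0.62). CD47, the signal against phagocytosis, was at -0.24 and CD276 at 0.38. CIITA, the class II counterpart of NLRC5, was 2.20-fold higher on 13 and 41 reads, with an interval of 0.26 to 2.21, and it was at 0.32 when summed with DEXI, which shares exon bases. Its target HLA-DMA, with 26 and 37 reads, was at 0.04. Of 18 MHC genes without a part in antigen presentation, TRIM39 was higher, at 0.61, and at 0.10 when summed with its exon-sharing genes. The best-read genes of that list, TUBB and HSPA1A, were at 0.06 and 0.35.

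**Figure D5:**
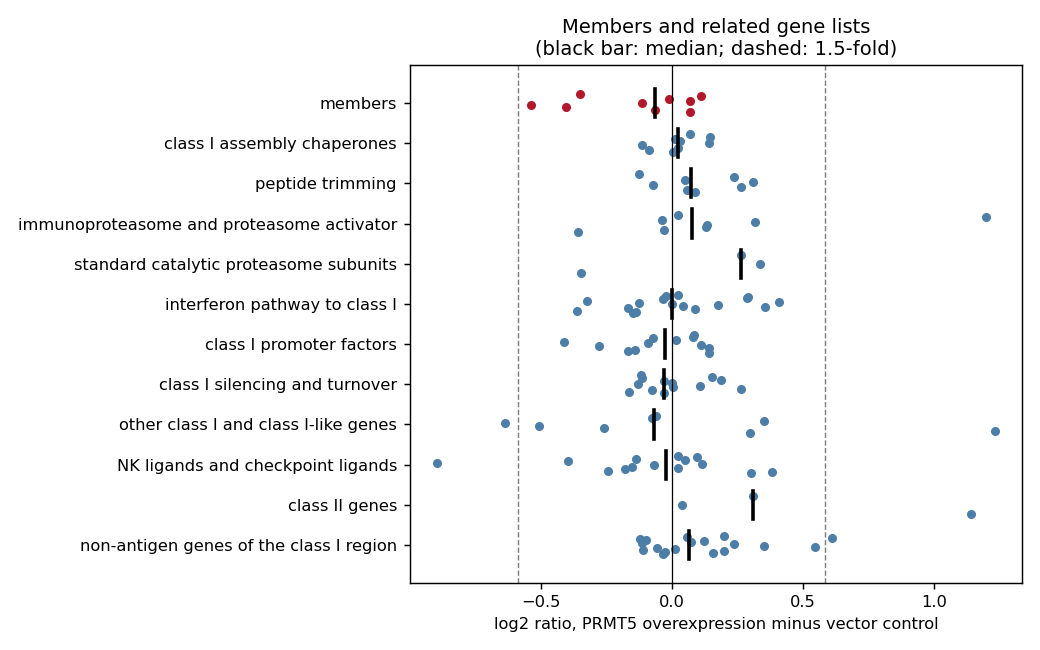
Log2 ratios, PRMT5 overexpression minus vector control, of the 9 class I presentation genes (red) and 11 related lists (blue) for genes with 10 or more reads, with the median of each list as a black bar and 1.5-fold as dashed lines. The member median is -0.06, and 4 genes lie past the right dashed line and 2 past the left.

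Class I genes are expressed by nearly all nucleated cells, so other cell types would add to their reads. Fibroblast markers had 6 of 8 genes with 10 or more reads, 5 of them below 0 and 1 above. Of the 6, 3 were lower by 1.5-fold or more, all on few reads, where 5.33% of all genes were. The summed level of the fibroblast markers was 99.2 CPM under the vector alone and 82.1 CPM with PRMT5 overexpression. Most of it was COL1A1, at 92.6 and 79.0 CPM. COL1A2 had 26 and 7 reads, COL3A1 11 and 2, and DCN 12 and 0. The log2 ratio of PDGFRB, -0.24 from 25 and 29 reads, was below 0 too. The marker above 0 was MFAP5, whose 12 and 21 reads gave 0.32. The counting intervals of PDGFRB and MFAP5 held 0. Epithelial markers were on the other side of 0, with a median of 0.15 and a sum of 7038 and 7799 CPM. Of these 7 markers, 6 had a log2 ratio above 0, where 50.4% of all genes did. Leukocyte markers had 2 of 8 genes with 10 or more reads and a sum of 21.9 and 17.4 CPM, nearly all CD68 at 20.1 and 16.2 CPM. CD68 summed with its exon-sharing genes was at 0.32 and ITGAM had 12 and 3 reads, while the defining marker PTPRC had 0 and 4 reads. Endothelial markers had 2 of 6 genes with 10 or more reads and a sum of 5.96 and 4.46 CPM, with CDH5, KDR and TIE1 at 0 reads in both. The part of any of these markers' cells in the lower HLA-B, HLA-C and TAPBP values was not tested. In bulk RNA, fewer cells with a transcript and less of it per cell cannot be told apart.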

How the data were processed

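The deposited table listed 58302 gene IDs with raw counts and FPKM for both libraries. The tools recorded per the submitters' processing notes, with no roles, are edgeR, StringTie 1.3.4b, HISAT2 2.1.0 and CASAVA 1.8, and the builds hg38 and GRCh38. Libraries were made from TRIzol RNA with an NEB kit, per the labels' protocols. The authors' FPKM equalled count over total count and 1 fixed length per gene within 1% in 100% of 11478 genes with more than 100 reads in both libraries. Of the IDs, 58039 were in GENCODE release 29 and 56567 had the same start and end. No per-sample column was left unused.

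Rows of 1 symbol were summed. Counts were scaled by TMM (edgeR 4.0.16, R 4.3.3; factors 1.01 for vector control and 0.990 for PRMT5 overexpression, over genes with 10 or more reads in a library), and log2 ratios used a prior count of 1. Intervals split the reads of a gene between the libraries (Clopper-Pearson, 95%). Reads are not independent molecules. Read ratios have exact conditional odds ratio intervals. No p-value was computed. The ratio and interval calculations were tested on simulated Poisson counts without TMM scaling or variation between libraries. That test cannot show how the values would vary between replicates.

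The members and lists were chosen with earlier results of these data known. Text names all members and PRMT5, list genes past 1.5-fold with 10 or more reads in a library, the 2 best-read genes of each list, and exon-sharing genes of members. Other genes were added for their role or after their values were seen. Some items are not reported here. Of 161 list entries, 161 matched the table, by symbol or gene ID. The alternatives tried were size factors from DESeq2 1.42.0, total counts, prior counts of 0.1 and 5, the highest row per symbol, deposited FPKM with a pseudocount of 1, no floor, a floor of 50 reads, thresholds of 1.2-fold and 2-fold, sums over exon-sharing genes and protein-coding genes as background. Python 3.11.15 was used with scipy 1.17.1, pandas 2.3.3, numpy 2.4.6 and, for figures, matplotlib 3.10.9.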

Additional observations from a re-analysis of the deposited data

How the results depend on the processing

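Of 63 recalculated log2 ratios of the 9 genes, 62 stayed within their counting intervals, and these settings move well-read genes little by construction. The exception was HLA-C, at -0.45 when summed with HLA-B, a sum that holds more HLA-B than HLA-C reads. HLA-B ranged from -0.44 to -0.38, HLA-C from -0.56 to -0.45 and TAPBP from -0.38 to -0.33. TAP1, at -0.01 in the main setting, was the 1 gene to change sign, to 0.01 with DESeq2 size factors. Its range over the alternatives was -0.04 to 0.01. The median over all genes was 0.02 with DESeq2 size factors and -0.03 with total counts. PRMT5 was at 0.93 with deposited FPKM, where the pseudocount shrinks the ratio. The number of members lower by 1.5-fold or more, 0, became 3 at 1.2-fold. The number of related genes higher, 4, became 1 with FPKM, 10 with no floor and 21 at 1.2-fold; the number lower, 2, became 7 with no floor, 10 at 1.2-fold, 0 at 2-fold and 1 when summed with exon-sharing genes. That sum, the background of genes averaging at least 200 reads and the principal transcript length were chosen after seeing the data. Leaving out a library leaves no comparison. No paired analysis was possible because there is only 1 library in each group. Of 13480 protein-coding genes with 10 or more reads, 13.4% were lower by 1.2-fold or more. A gene with the depth of NLRC5 had an interval of -0.18 to 0.32, so smaller differences were not detectable there.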
